A study of Homo sapiens with 3 samples.

Results

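The HOX genes measured here were 28 of the 19775 genes compared in KYSE140, a cell line established from a human squamous carcinoma of the oesophagus. Members were all genes named HOXA, HOXB, HOXC or HOXD with a number that had a probe set carrying 1 gene symbol, and antisense genes were left out. A probe set is a group of short array probes read as 1 value. Where a gene had several of them, it was represented by the probe set with the highest mean log2 intensity over the 3 arrays. HOXA contributed 1 gene (HOXA2), HOXB 10, HOXC 9 and HOXD 8, on chromosomes 7, 17, 12 and 2. The other HOXA genes were not analysed here. The members were read by 44 probe sets.

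RNA was taken after 12 h of cisplatin (2 arrays, B1 and B2) or from cells that received none (1 array, called untreated). Cisplatin is a platinum compound whose DNA crosslinks block replication and transcription, and the labels put its concentration at 10 mM. All cells were of the same line, grown in RPMI medium with serum and antibiotics. Whether the cisplatin arrays stem from different cultures is not stated in the labels. Their spread may therefore be technical. The untreated value of every gene is that of a single array, which the differences of both B1 and B2 share. Platinum drugs are usually given to cultured cells at micromolar concentrations, which leaves the labelled unit in doubt.

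HOX genes encode homeodomain transcription factors that tell cells where they lie along the head-to-tail axis of the embryo. They sit in 4 clusters, and the order of genes in a cluster follows the order of their expression along the axis: low numbers are used towards the head and high numbers towards the tail and the limb tips. Genes of the same number in different clusters are paralogues. Adult epithelia and their tumours keep part of this code, and Polycomb complexes hold unused HOX genes silent while Trithorax complexes keep used ones active. In what follows paralogue groups 1 to 3 are called anterior (5 members), groups 4 to 8 central (11 members) and groups 9 to 13 posterior (12 members).

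The 300 bases around the start of 5 HOXD genes are printed because this cluster held the members with the highest ratios of B2 to untreated (HOXD8, HOXD10 and HOXD13) next to dim members that hardly differed (HOXD4 and HOXD12). Sequences run from 250 bases before to 50 bases after a start, are RefSeq's on GRCh38.p14, and are written 5′ to 3′ with every CG pair in capitals, since unmethylated CG-rich stretches are a feature of HOX promoters. RefSeq windows were matched for 11 of the 28 members.
HOXD13, chr2:176092471-176092770, + strand, 24 CG pairs: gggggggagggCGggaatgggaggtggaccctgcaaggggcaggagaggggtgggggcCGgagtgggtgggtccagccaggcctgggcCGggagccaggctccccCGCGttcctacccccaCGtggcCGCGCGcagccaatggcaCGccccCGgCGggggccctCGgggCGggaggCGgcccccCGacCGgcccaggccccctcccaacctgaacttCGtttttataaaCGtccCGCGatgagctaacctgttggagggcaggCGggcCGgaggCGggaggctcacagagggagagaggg
HOXD12, chr2:176099545-176099844, + strand, 19 CG pairs: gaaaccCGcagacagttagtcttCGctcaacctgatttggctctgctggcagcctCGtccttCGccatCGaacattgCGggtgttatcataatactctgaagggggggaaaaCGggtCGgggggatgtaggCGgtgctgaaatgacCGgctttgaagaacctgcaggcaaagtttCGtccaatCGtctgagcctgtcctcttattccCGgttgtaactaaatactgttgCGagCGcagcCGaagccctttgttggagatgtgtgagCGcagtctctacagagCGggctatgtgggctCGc
HOXD10, chr2:176116528-176116827, + strand, 23 CG pairs: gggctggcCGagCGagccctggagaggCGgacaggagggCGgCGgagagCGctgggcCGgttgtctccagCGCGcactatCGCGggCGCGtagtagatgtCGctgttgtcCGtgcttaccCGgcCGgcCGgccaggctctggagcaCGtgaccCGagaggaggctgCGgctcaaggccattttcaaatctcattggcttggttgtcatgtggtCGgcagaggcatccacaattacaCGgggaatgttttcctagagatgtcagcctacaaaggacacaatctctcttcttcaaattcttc
HOXD8, chr2:176129455-176129754, + strand, 34 CG pairs: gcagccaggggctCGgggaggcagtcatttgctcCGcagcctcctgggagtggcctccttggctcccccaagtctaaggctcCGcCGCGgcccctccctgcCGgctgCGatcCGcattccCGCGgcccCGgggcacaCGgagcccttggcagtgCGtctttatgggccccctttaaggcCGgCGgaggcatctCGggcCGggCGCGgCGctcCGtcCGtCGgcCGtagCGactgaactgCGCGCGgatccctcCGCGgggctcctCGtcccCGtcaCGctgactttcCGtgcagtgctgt
HOXD4, chr2:176151300-176151599, + strand, 4 CG pairs: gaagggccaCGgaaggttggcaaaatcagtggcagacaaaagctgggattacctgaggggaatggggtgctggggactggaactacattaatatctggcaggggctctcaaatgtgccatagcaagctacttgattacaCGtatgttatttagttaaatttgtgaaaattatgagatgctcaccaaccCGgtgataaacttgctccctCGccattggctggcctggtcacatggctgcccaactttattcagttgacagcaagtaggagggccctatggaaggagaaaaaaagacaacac
The windows of HOXD11 and HOXD1 held 27 and 36 CG pairs. The median over all 35116 windows was 14, and 15.6% of windows held as many CG pairs as that of HOXD8 or more, 33.9% as many as that of HOXD13, 35.8% as many as that of HOXD10, 42.9% as many as that of HOXD12, and 75.5% as many as that of HOXD4. TATAAA was searched on both strands and was found in 11.5% of all windows. Among the HOXD windows it was found only in that of HOXD13. These are descriptions of the sequence. No promoter activity was measured, and HOXC4 and HOXC5 share 1 window because RefSeq gives them the same start, so their transcripts overlap.

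Array B2 stood apart from the other arrays. The SD of the log2 difference over all genes was 0.56 between B2 and B1, 0.60 between B2 and untreated, and 0.33 between B1 and untreated. Squamous markers moved with it. Of 10 listed markers 6 were measured, and their intensities summed to 12123 in B1 and 21580 in B2, against 11328 in untreated cells. SFN alone gave 9458 in B1, 12581 in B2 and 8776 in untreated cells. That gene made up most of each sum, but not most of the rise in B2. At least 2-fold higher in B2 were 4 of the 6, against 3.82% of genes with a mean log2 intensity of at least 6, as all 6 had. KRT14, a basal keratin, had 276 in B1 and 2372 in B2, against 278 in untreated cells. The 7 fibroblast markers summed to 327 in B1 and 420 in B2, against 297 in untreated cells, with DCN, LUM, COL1A2, COL3A1 and PDGFRB dim. Of the other markers COL1A1 had 155 in B1 and 159 in B2, against 122 in untreated cells, on its brightest probe set. All 5 COL1A1 probe sets were higher than untreated in B2, and 2 of the 5 were at least 2-fold higher. Their mean log2 difference was 0.104 in B1 and 0.765 in B2, so the brightest probe set alone understates the shift in B2. THY1 had 61.6 in B1 and 144 in B2, against 59.5 in untreated cells. Leukocyte and endothelial markers that were measured (4 and 5 genes) were all dim. The part of these shifts in the HOX values below was not tested, and in a bulk sample fewer cells of a type and less RNA per cell cannot be told apart.

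Of the 28 HOX genes, 18 had a mean log2 intensity of at least 6 over the arrays (an intensity of about 64) and 10 lay below it. The brighter 18 were HOXB2, HOXB3, HOXB4, HOXB7 and HOXB9, all HOXC genes other than HOXC12, and HOXD8, HOXD9, HOXD10, HOXD11 and HOXD13. The anterior genes HOXA2, HOXB1 and HOXD1 were dim, as were HOXB5, HOXB6, HOXB8, HOXB13, HOXC12, HOXD4 and HOXD12. Detection calls were not used, and a dim gene may be an undetected one. Probes differ in efficiency, so intensities are not compared between genes.

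**Figure D1:**
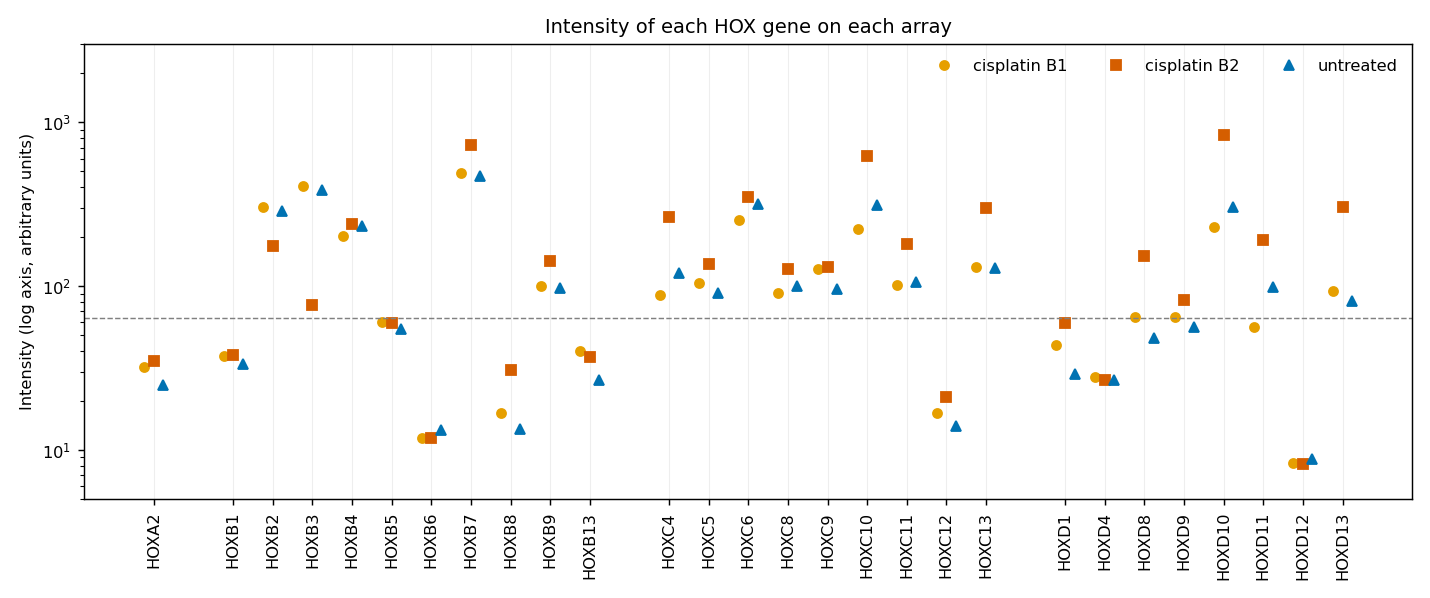
Intensity (log axis, arbitrary units) of the 28 HOX genes in cluster order on cisplatin arrays B1 (circles) and B2 (squares) and on the untreated array (triangles), 1 point per array. The dashed line marks the intensity of 64 that divides brighter from dim genes. B2 stands above the other arrays for all brighter HOXC and HOXD genes, and far below them for HOXB3 (76.5 in B2, against 409 in B1 and 384 in untreated cells).

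No HOX gene passed the test for a difference between cisplatin and untreated cells. With limma and Benjamini-Hochberg adjustment over all genes, 0 of 28 members had an adjusted p under 0.05, and so did 0 of 19775 genes (0%). The members' adjusted p ran from 0.97 to 0.995 by limma. At an unadjusted p under 0.05 the counts were 0 of 28 members and 2.86% of all genes. The member with the lowest unadjusted p in that limma fit was HOXD1 (0.070). The fit had 1 residual degree of freedom and called no gene of any kind, so the lack of a call does not show that a HOX gene was the same in both conditions. The values that follow describe 3 arrays.

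A 2-fold difference from untreated in B1 and B2 alike was found for no HOX gene. The counts were 0 of 28 higher and 0 of 28 lower, against 0.142% and 0.678% of all genes. In B1 alone 0 members were 2-fold higher and 0 were 2-fold lower, against 0.238% and 1.51% of all genes. In B2 alone 7 were 2-fold higher and 1 was 2-fold lower, against 2.99% and 4.5% of all genes. Among the 18 brighter members 5 were 2-fold higher in B2 and 1 was 2-fold lower, against 3.82% and 7.36% of the 10209 genes as bright. B2 lay at least 2-fold above both other arrays for 5 members (2.1% of all genes) and 2-fold below both for 1 (2.41% of all genes).

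The median log2 difference over the 28 members was 0.08 in B1 and 0.56 in B2, and over all genes it was 0.03 and 0.05. In B1 the members lay between -0.81 (HOXD11) and 0.60 (HOXB13), and in B2 between -2.33 (HOXB3) and 1.90 (HOXD13). Both cisplatin arrays were above untreated for 16 of 28 members, against 39.2% of all genes, and both were below it for 2 (HOXB6 and HOXD12), against 27.4% of all genes. Of the 16, 8 were dim, and the counts for short genes are given with gene length below. The untreated value lay between B1 and B2 for the other 10 members, all of them among the 18 brighter ones. It did so for 6593 of all 19775 genes, and for 3681 of the 10209 genes as bright. The mean difference from untreated was larger than the SD of the cisplatin pair for 13 of 28 members, but for only 4 of the 18 brighter ones (HOXC5, HOXC9, HOXD8 and HOXD9, named after their values were seen). Over all genes this held for 10681 of 19775, and for 5007 of the 10209 genes as bright.

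**Figure D2:**
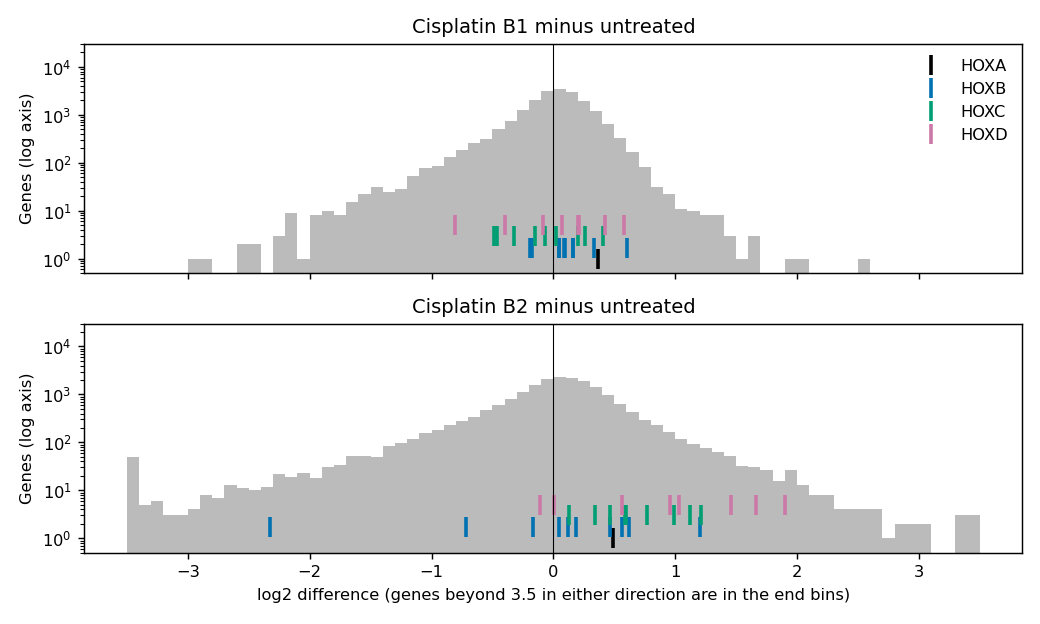
Number of genes (log axis) by log2 difference from untreated for cisplatin array B1 (top) and B2 (bottom), over all 19775 genes, with the 28 HOX genes as coloured ticks by cluster, whose height carries no value. The HOX genes lie between -0.81 and 0.60 in B1 and between -2.33 and 1.90 in B2.

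HOXD genes of the posterior and central range had the highest ratios in B2. HOXD13, which shapes digits and the genital tubercle, had an intensity of 93.4 in B1 and 304 in B2, against 81.3 in untreated cells. B2 was 3.74-fold higher than untreated (log2 difference 1.90) and B1 differed by 0.20, so the pair did not agree on the size. The limma mean difference was 1.05 with a standard error (SE) of 0.87 and an adjusted p of 0.97. All 3 HOXD13 probe sets were at least 2-fold higher in B2 (1.21 to 2.01), and in B1 they ran from -0.13 to 0.20.

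HOXD8, a central member, had 64.8 in B1 and 153 in B2, against 48.2 in untreated cells. It was higher in both cisplatin arrays, by 0.43 in B1 and 1.66 in B2 on the log2 scale (mean 1.05, SE 0.64), and was read by 1 probe set. HOXD10, which patterns lumbar motor neurons and the hindlimb in mouse, had 229 in B1 and 831 in B2, against 302 in untreated cells. The untreated value lay between the pair, at differences of -0.40 (B1) and 1.46 (B2) on the log2 scale. Each of its 3 probe sets was at least 2-fold higher in B2 (1.28 to 1.49), whereas in B1 they ran from -0.40 to 0.13. HOXD1, the anterior gene at the opposite end of the cluster, was dim, with 43.6 in B1 and 59.8 in B2, against 29.2 in untreated cells. Both cisplatin arrays were above untreated (0.58 and 1.03), but its other probe set differed by only 0.19 in B2.

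The remaining HOXD genes differed in kind. HOXD11, a forearm patterning gene in mouse, had 56.1 in B1 and 191 in B2, against 98.4 in untreated cells. Its log2 differences of -0.81 and 0.96 had opposite signs. HOXD9 differed by 0.21 and 0.56 (64.8 in B1 and 82.6 in B2, against 55.9 in untreated cells). HOXD4 and HOXD12 were dim and close to untreated in both arrays. HOXD4 had 27.9 in B1 and 26.7 in B2, against 26.6 in untreated cells. HOXD12 had 8.28 in B1 and 8.15 in B2, against 8.81 in untreated cells. HOXD12 was read by 1 probe set and may not have been detected.

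Every HOXC gene was higher in B2 than in both other arrays. The log2 differences from untreated in B2 ran from 0.13 (HOXC6) to 1.21 (HOXC13), with a median of 0.59, and in B1 from -0.48 to 0.41, with a median of -0.06. HOXC13, which drives hair and nail keratin genes, had 131 in B1 and 301 in B2, against 129.6 in untreated cells. B2 was 2.32-fold higher than untreated, and B1 differed by 0.02 on the log2 scale. HOXC10, expressed in lumbar segments and the hindlimb, had 224 in B1 and 621 in B2, against 313 in untreated cells, or log2 differences of -0.48 and 0.99. HOXC4 had 87.7 in B1 and 263 in B2, against 121 in untreated cells, or -0.46 and 1.12. For both of these the untreated value lay between the cisplatin pair.

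HOXC6 differed less, by -0.33 and 0.13, with 254 in B1 and 349 in B2, against 319 in untreated cells. HOXC9 was the HOXC gene on which the pair agreed most closely, with log2 differences of 0.41 and 0.46 (126 in B1 and 131 in B2, against 95.4 in untreated cells; SE 0.19, adjusted p = 0.97 by limma). HOXC5 (0.20 and 0.59) and the dim HOXC12 (0.26 and 0.59) were also higher in both arrays. HOXC11 differed by -0.06 and 0.77, and HOXC8, which marks the brachial and thoracic level, by -0.15 and 0.34. Each HOXC gene was read by 1 probe set, so no internal check of these values exists, and the overlap of HOXC4, HOXC5 and HOXC6 in the annotation means that their probe sets may share transcripts.

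HOXB genes lay on both sides of untreated in B2. HOXB3, which acts in the hindbrain and pharyngeal arches, had 409 in B1 and 76.5 in B2, against 384 in untreated cells. B2 was 5.02-fold lower than untreated (log2 difference -2.33), while B1 differed by 0.09. Its other probe set did not show this, with 68.9 in B1 and 67.8 in B2, against 58.7 in untreated cells, or 0.23 and 0.21 on the log2 scale. HOXB2, its neighbour, had 305 in B1 and 175 in B2, against 287 in untreated cells (0.09 and -0.72). HOXB4, studied for its effect on blood stem cell growth, was close to untreated in both arrays (203 in B1 and 239 in B2, against 231 in untreated cells).

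Further towards the posterior side of the cluster, HOXB7, HOXB8, HOXB9 and HOXB13 lay above untreated in B2. HOXB7, often raised in carcinomas, had 486 in B1 and 723 in B2, against 470 in untreated cells, and its 3 probe sets were higher in B2 by 0.50 to 0.96. HOXB9 had 100.1 in B1 and 143 in B2, against 96.8 in untreated cells (0.05 and 0.56). HOXB8 was 2-fold higher in B2 but dim, with 16.8 in B1 and 30.8 in B2, against 13.4 in untreated cells, and its other probe set differed by -0.06 in B2. The dim HOXB13, a prostate and colon factor, was higher in both arrays (40.3 in B1 and 36.7 in B2, against 26.6 in untreated cells; 0.60 and 0.47), but its other probe set differed by -0.23 and 0.35. HOXB1, HOXB5 and HOXB6 were dim, with log2 differences of -0.17 to 0.18 over both arrays, although the second probe set of HOXB5 differed by 0.49 in B2. HOXA2, a patterning gene of the pharyngeal arches, was dim too, with 31.9 in B1 and 34.8 in B2, against 24.8 in untreated cells (0.36 and 0.49).

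**Figure D3:**
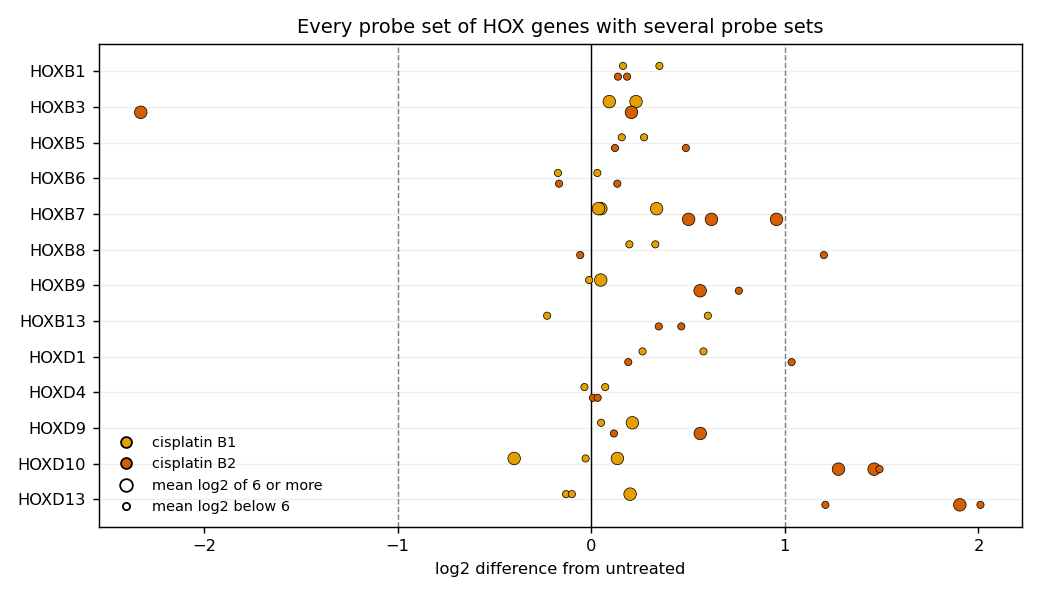
Log2 difference from untreated of every probe set of the 13 HOX genes that have several, on cisplatin arrays B1 and B2. Large points are probe sets with a mean log2 intensity of at least 6, small points are dimmer, and dashed lines mark 2-fold. The 3 probe sets of HOXD10 and of HOXD13 lie together above 1 in B2, whereas those of HOXB3, HOXB8 and HOXD1 disagree.

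Set out by position, the brighter central and posterior genes were higher in B2, and the anterior genes lay on both sides of untreated. Over all 5 anterior members the median difference was 0.16 in B1 and 0.18 in B2 (log2), and 3 of the 5 were higher in B2 (HOXA2, HOXB1 and HOXD1, all dim). The 2 brighter ones, HOXB2 and HOXB3, were lower in B2, by 0.72 and 2.33. For HOXB3 this rests on 1 of its 2 probe sets, since the other read 0.21 and their mean was -1.06. The 7 brighter central members were all higher in B2 (median 0.59) and 3 of the 7 were higher in B1 (median -0.15). The 9 brighter posterior members were all higher in B2 (median 0.96), and 5 of the 9 in B1 (median 0.02). By comparison, 5013 of the 10209 genes as bright were higher in B2, with a median of -0.01. Both brighter anterior members belong to HOXB, so position and cluster cannot be told apart for them. Within HOXB alone the brighter genes read -0.72, -2.33, 0.05, 0.62 and 0.56 from HOXB2 to HOXB9.

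By cluster, the median log2 difference in B2 over brighter genes was 0.05 for HOXB (5 genes), 0.68 for HOXC (8 genes) and 1.46 for HOXD (5 genes), and in B1 it was 0.05, -0.11 and 0.20. With 1 array on each side, none of the differences between clusters, positions or the cisplatin arrays can be tested.

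**Figure D4:**
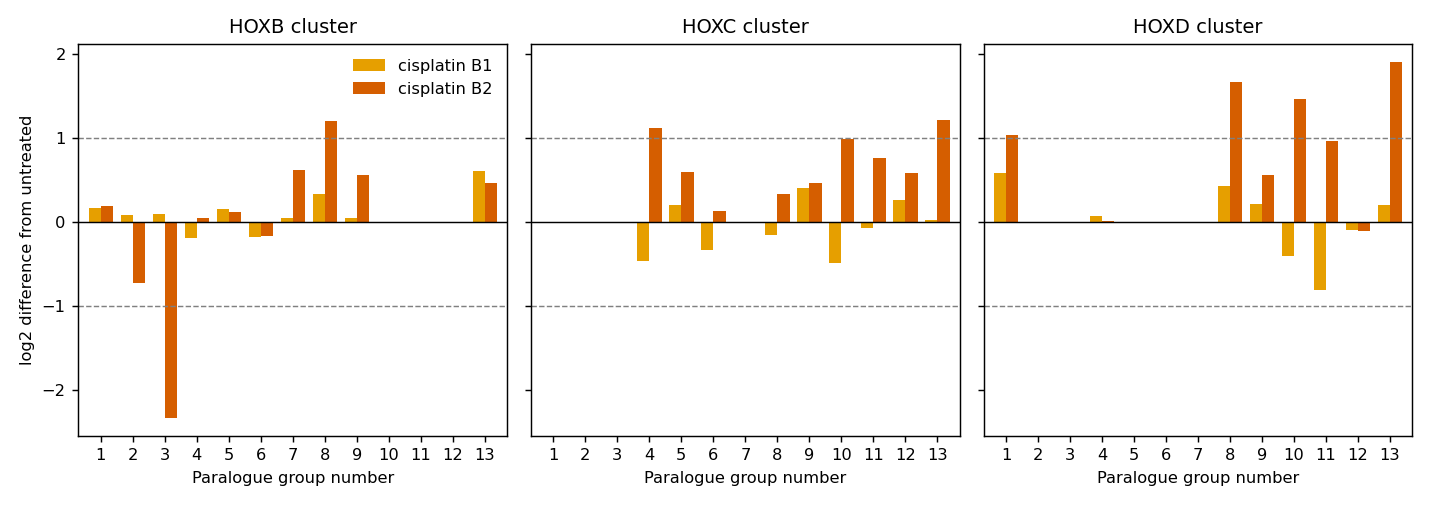
Log2 difference from untreated of cisplatin arrays B1 and B2 by paralogue group number in the HOXB, HOXC and HOXD clusters, 1 bar per array and gene. Numbers without bars have no member gene, and HOXD3 is absent because its probe sets carry several symbols. Dashed lines mark 2-fold. In B2 the bars are below 0 for HOXB2 and HOXB3, slightly below 0 for the dim HOXB6 and HOXD12, and above 0 for all HOXC genes and for HOXD8, HOXD9, HOXD10, HOXD11 and HOXD13.

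HOX genes are short, and gene length moved with the cisplatin differences over all genes. The members spanned 1.68 to 41.4 kb (median 3.79 kb), against a median of 24.7 kb over all genes. For the 5437 genes spanning 10 kb or less the median was 0.09 in B1 and 0.12 in B2 on the log2 scale, and for the 14298 longer ones it was -0.0011 and 0.03. The 24 HOX genes in the same range had medians of 0.08 and 0.56, and the 4 longer ones -0.12 and 0.36. Both arrays lay above untreated for 15 of these 24, against 2761 of the 5437 short genes. They lay below it for 2 of the 24, against 894 of the 5437. HOXB3 was the longest member (41.4 kb) and HOXC4 followed (39.1 kb), with B2 differences of -2.33 and 1.12. The part of gene length in these values was not tested.

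Among the proteins that bind DNA with HOX factors, MEIS2 was the 1 that differed by 2-fold in both arrays. This homeodomain cofactor had 188 in B1 and 161 in B2, against 517 in untreated cells, and was lower in both arrays, by 1.46 and 1.68 on the log2 scale (SE 0.21, adjusted p = 0.97 by limma). It spans 212 kb. Of the 8 cofactors measured (of 9 listed), both arrays lay above untreated for 4 and below it for 4. Over all genes these shares were 39.2% and 27.4%, and 0.678% were 2-fold lower in both arrays. The cofactor medians were -0.18 (B1) and -0.01 (B2). PBX3, spanning 220.0 kb, had 198 in B1 and 302 in B2, against 366 in untreated cells, and PBX2, spanning 5.47 kb, had 212 in B1 and 328 in B2, against 211 in untreated cells.

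Genes of the complexes that act on HOX chromatin lay on both sides of untreated. The median absolute log2 difference in B2 was 0.27 for the Polycomb list and 0.36 for the Trithorax list, against 0.25 over all genes and 0.33 over the genes with a mean log2 of at least 6. Of 16 Polycomb genes measured (of 20), both arrays lay above untreated for 2 and below it for 8. All 16 had a mean log2 of at least 6. Among the 10209 genes as bright, both arrays lay above untreated for 3038 and below it for 3490. The Polycomb medians were -0.13 (B1) and -0.12 (B2). JARID2, which helps to recruit the PRC2 complex, differed by -1.28 and -0.91, with 133 in B1 and 172 in B2, against 324 in untreated cells, and its 3 probe sets ran from -1.13 to -0.05 in B2. EZH1, a PRC2 methyltransferase, differed by -0.13 and -0.70, and SUZ12, a core PRC2 subunit, by -0.55 and -0.24. Of 13 Trithorax and related genes measured (of 14), both arrays lay above untreated for 5 and below it for 4. All 13 were as bright, so the same 3038 and 3490 of 10209 genes apply. The Trithorax medians were -0.08 (B1) and 0.17 (B2).

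In B2 3 of the 13 were at least 2-fold lower, against 4.5% of all genes and 7.36% of genes as bright. Of these only KDM6A was 2-fold lower in B1 as well, on its brightest probe set. KDM6A, a demethylase that removes the Polycomb histone mark, had 115 in B1 and 44.2 in B2, against 235 in untreated cells (-1.03 and -2.41). Its 4 probe sets had a mean of -0.75 in B1, short of 2-fold, and ran from -2.80 to -0.45 in B2. KMT2A, the methyltransferase that maintains HOX expression in blood cells, differed by -0.46 and -1.18, with its 11 probe sets between -1.18 and 0.16 in B2, and CTCF, which sets boundaries within HOX clusters, by -0.49 and -1.06. JARID2, KDM6A, KMT2A and CTCF span 276, 239.6, 90.3 and 76.7 kb. No gene of these lists passed limma's test.

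Of 10 upstream signalling genes measured (of 11), both arrays lay above untreated for 5 and below it for 0 (medians 0.15 in B1 and 0.33 in B2). Over all genes both arrays lay above untreated for 39.2% and below it for 27.4%. CDX1, a caudal factor that acts on HOX genes, had 93.8 in B1 and 105 in B2, against 63.4 in untreated cells. CYP26A1, which breaks down retinoic acid, differed by 0.33 and -0.83, and the ligand gene GDF11 by 0.26 and 0.50. Of 13 antisense and neighbouring transcripts measured (of 22), both arrays lay above untreated for 7 and below it for 1. The shares of all genes were again 39.2% and 27.4%, and the list medians were 0.17 (B1) and 0.36 (B2). However, 11 of the 13 were dim. Among the 10209 brighter genes of the array only 3038 were above untreated in both arrays, so the share was higher among dim genes. The brighter 2 of the 13 transcripts were noncoding RNAs of the HOXD cluster. They differed from untreated by 0.70 and 0.68 in B2, and by 0.03 and -0.13 in B1. HAGLR had 68.7 in B1 and 109 in B2, against 67.2 in untreated cells, but its 3 probe sets ran from 0.11 to 0.70 in B2 with a mean of 0.37. HAGLROS had 92.1 in B1 and 162 in B2, against 101.0 in untreated cells. HOTAIR, a noncoding RNA of the HOXC cluster chosen for mention after its values were seen, was dim, with 12.3 in B1 and 26.3 in B2, against 7.90 in untreated cells.

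**Figure D5:**
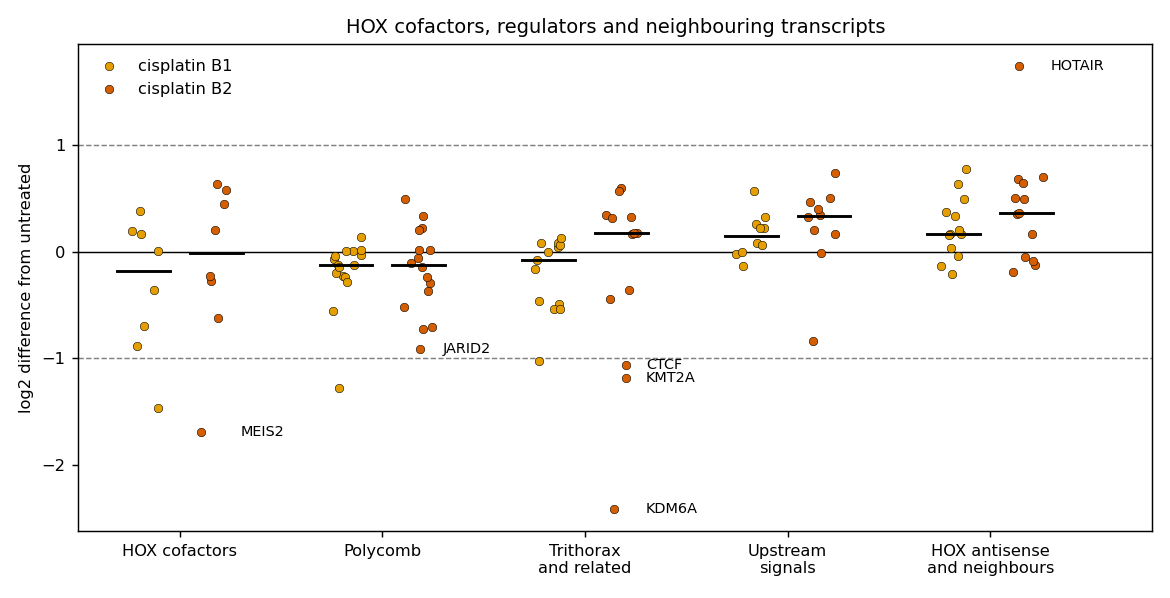
Log2 difference from untreated of each gene in 5 lists around the HOX genes, on cisplatin arrays B1 and B2, with 1 point per gene, medians as black bars and dashed lines at 2-fold; genes past 2-fold in an array are named beside their B2 point. MEIS2 and KDM6A lie below -1 in both arrays, and the list medians lie between -0.18 and 0.36.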

How the data were processed

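RNA of 3 samples was measured on Affymetrix arrays after 3' IVT labelling, per the labels' protocols. The authors deposited 1 intensity per probe set for 54675 probe sets, made with RMA per the submitters' processing notes. No RMA version is named in the sources used here. The intensities ran from 3.03 to 19645 (medians 35.9 in B1, 35.6 in B2 and 34.8 in untreated cells), so they were taken as linear and put on the log2 scale with no pseudocount. Precision is limited by the number of arrays.

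Control probe sets (62) were removed. Among the rest, 41091 carried 1 gene symbol, updated by gene number to GRCh38.p14, and 1801 carried several. limma 3.58.1 in R 4.3.3 (lmFit, eBayes) was fitted to all 19775 genes, cisplatin against untreated, with Benjamini-Hochberg adjustment at 0.05. It had 1 residual and 2.01 prior degrees of freedom and assumes that the untreated array varies like the cisplatin pair. Tested on simulated data, the fit estimated the sizes of the changes but called none of them at any size tried. A size rule took 2-fold differences from untreated.

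Named in full were members past 2-fold in either cisplatin array and the 2 brightest of each cluster. Array values of some further members, such as HOXD11 and HOXC9, were given outside this rule. In pathway lists up to 3 members with a mean log2 of at least 6 and the largest differences were named. Members and lists were chosen with earlier results of these data known. Alternatives covered probe sets, dim genes, scaling, the variance prior and size thresholds. No columns were left unused (0).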

Additional observations from a re-analysis of the deposited data

How the results depend on the processing

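In this design limma called no changed gene in simulated data, so its count of 0 HOX genes under each of the 7 alternatives run says nothing about stability (mean of all probe sets, without _x_at and _s_at probe sets, brighter genes only, quantile normalization, median centring, a variance trend, a robust prior). The counts of 0 genes 2-fold higher and 0 lower in both cisplatin arrays stayed at 0 with the first 5 of these. They were also 0 with thresholds of 1.5-fold and 3-fold. Brighter genes only and the 3-fold threshold had to give 0, since each applies a stricter rule to the same values. With 1 cisplatin array left out they were 0 to 7 higher and 0 to 1 lower, the upper ends being B2 alone. Limma without a cisplatin array was not run, since no residual degree of freedom is left. The median difference lay between 0.03 and 0.13 in B1 and between 0.48 and 0.61 in B2. With the mean of all probe sets, or without _x_at and _s_at probe sets, 6 members stayed past 2-fold in B2 and HOXB8 and HOXD1 did not. HOXB8 changed sign (-0.057) without _x_at and _s_at probe sets, which leaves its other probe set, and HOXD1 then read 0.19 (0.61 as a mean). The mean of probe sets gave 442 genes of all 2-fold higher and 546 lower in B2, against 591 and 890. Without _x_at and _s_at probe sets the counts over all genes were 571 and 873. HOXB3 read -1.06 in B2 as the mean of its probe sets. Quantile normalization put 10 members past 2-fold (9 of them higher), adding HOXC10 and HOXD11. Under it 634 genes of all were 2-fold higher in B2 and 793 lower. Of the 18 brighter members, 16 were higher in B2 under the 4 probe set and scaling alternatives, with HOXB2 and HOXB3 as the exceptions each time, while 9 to 11 were higher in B1. For members near the median of the array, the dim signal limits what can be read.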

Other observations

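Probe sets with several symbols were not members. The 3 that name HOXD3 and HOXD4 together were among the dim probe sets, with intensities of 4.95 to 6.99 in B1 and 5.48 to 8.24 in B2, against 5.22 to 8.62 in untreated cells.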
